A study of Rattus norvegicus with 14 samples.

Results

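Broad transcription start site (TSS) clusters were defined as the rows of the Tn5Prime table whose end minus start plus 1 was at least 150 bp, and 441 of 4993 clusters met this rule. All 4993 are candidate SOX10-associated TSSs, since each was found in adult rat sciatic nerve and lies within 1 kb of an H3K4me3 peak that overlaps a SOX10 peak in nerve chromatin. Of the 441 broad clusters, 416 carried a gene symbol, and these belonged to 414 genes. They were compared with the 2612 narrower clusters that were the strongest TSS of their gene by the mean of the 2 sciatic nerve libraries, because a gene's minor clusters are both narrow and weak. Levels are given in RPM, the reads in a cluster scaled to the mapped reads of the library.

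The 14 Tn5Prime libraries made up 5 groups of rat samples. Sciatic nerve (2 libraries, wild type, from adult animals aged 6 to 9 months) is a tissue that also holds cells other than Schwann cells, so fewer cells of a type and less RNA per cell cannot be told apart there. Primary Schwann cells (wild type) were moved to medium without neuregulin and forskolin and then received vehicle (control, 3 libraries) or 250 µM CPT-cAMP, a cell-permeable cAMP analogue that promotes Schwann cell differentiation for 3 days (cAMP, 3 libraries). S16 cells, an immortalized rat Schwann cell line, were unmodified (parental, wild type, 2 libraries) or carried CRISPR-edited Sox10 (ΔSOX10, 4 libraries). Each ΔSOX10 library came from a different clone (1-1, 1-2, 2-1 and 2-2), and the clones were made with 2 guide RNAs, so clonal differences and the effect of the edit cannot be fully told apart. Library totals ran from 29895599 to 79940274 reads, and 28.7 to 37.0% of those reads fell in the 4993 clusters. The Sox10 cluster was at 90.7 and 77.5 RPM in the parental libraries and at 0 to 0.114 RPM in the 4 ΔSOX10 clones. Of 8 Schwann cell markers, 7 had a cluster in the table, and the only broad one was an Egr2 cluster. The summed RPM of these 7 was 72480 to 73510 in nerve, 3362 to 3500 in control cells and 9798 to 11480 with cAMP. It was 9381 to 9526 in parental S16 cells and 144 to 398 in ΔSOX10 clones. The summed RPM of the fibroblast markers Col1a1 and Pdgfra, the only 2 of 5 with a cluster, was 134.1 to 137.8 in nerve. It was 803 to 909 in control cells and 369.7 to 466 with cAMP. In parental cells it was 2255 to 2829 and in ΔSOX10 clones 2971 to 5302, and its part in the results was not tested. The mural cell marker Pdgfrb, the only 1 of 4 pericyte and smooth muscle markers with a cluster, was at 30.6 to 54.8 RPM in nerve, 0.779 to 1.91 in control cells, 22.4 to 29.6 with cAMP, 4.95 to 6.66 in parental cells and 3.07 to 19.8 in ΔSOX10 clones, and its part was not tested either.

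Mammalian promoters differ in where RNA polymerase II begins transcription. At focused or sharp promoters, most transcripts start within a few bases, and a TATA box often sets their position. At dispersed or broad promoters, initiation is spread over a long stretch, usually within a CpG island, and such promoters are best known from genes used in most cell types. In Schwann cells, SOX10 is the HMG-box transcription factor that drives the myelin program, in part through EGR2.

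The promoters of a few genes show the range of sequence behind broad clusters. Each is printed 5′ to 3′ on the strand of the gene, from 250 bases before to 50 bases after the RefSeq gene start (assembly GRCr8), in lower case with every CpG step in capitals. Sparc (chr10:40038767-40039066, minus strand) is shown as the broad cluster with the highest nerve level, Tgfbr3 (chr14:2634044-2634343, plus strand) and Usp6nl (chr17:76865324-76865623, minus strand) as clusters that rose with cAMP, and Nqo1 (chr19:52220218-52220517, minus strand) as a cluster that rose in ΔSOX10 clones.
Sparc: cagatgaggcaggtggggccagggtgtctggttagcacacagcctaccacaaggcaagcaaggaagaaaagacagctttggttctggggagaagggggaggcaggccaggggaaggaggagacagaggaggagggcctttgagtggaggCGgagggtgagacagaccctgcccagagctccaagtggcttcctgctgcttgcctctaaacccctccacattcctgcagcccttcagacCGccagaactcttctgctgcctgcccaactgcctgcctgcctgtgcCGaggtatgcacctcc
Tgfbr3: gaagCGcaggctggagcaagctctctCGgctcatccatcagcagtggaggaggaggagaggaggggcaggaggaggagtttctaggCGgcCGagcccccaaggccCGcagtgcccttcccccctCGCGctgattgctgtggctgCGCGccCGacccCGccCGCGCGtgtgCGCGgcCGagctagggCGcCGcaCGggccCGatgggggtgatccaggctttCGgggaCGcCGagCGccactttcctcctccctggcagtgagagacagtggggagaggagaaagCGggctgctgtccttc
Usp6nl: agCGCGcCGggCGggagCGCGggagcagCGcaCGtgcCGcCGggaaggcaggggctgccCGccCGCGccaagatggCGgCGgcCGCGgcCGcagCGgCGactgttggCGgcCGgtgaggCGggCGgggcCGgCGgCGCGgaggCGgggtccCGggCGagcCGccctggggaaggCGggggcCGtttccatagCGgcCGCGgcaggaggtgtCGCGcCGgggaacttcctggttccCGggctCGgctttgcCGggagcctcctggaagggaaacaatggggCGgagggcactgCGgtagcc
Nqo1: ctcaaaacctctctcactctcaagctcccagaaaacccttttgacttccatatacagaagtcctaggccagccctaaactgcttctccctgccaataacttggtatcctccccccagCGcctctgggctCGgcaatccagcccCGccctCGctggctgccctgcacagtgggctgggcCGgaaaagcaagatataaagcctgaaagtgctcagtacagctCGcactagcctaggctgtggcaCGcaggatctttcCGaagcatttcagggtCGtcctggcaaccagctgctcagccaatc

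The Sparc window held 3 CpG steps and the Nqo1 window 9, whereas Tgfbr3 had 26 and Usp6nl 45. The ratio of observed to expected CpG was 0.108 for Sparc, 0.402 for Nqo1, 0.72 for Tgfbr3 and 1.02 for Usp6nl. A broad cluster was thus found both at CpG-poor and at CpG-rich gene starts. These windows come from a newer assembly than the rn5 coordinates of the clusters, so whether a given broad cluster lies inside its gene's window was not tested.

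A TATA box was found most often at the narrowest clusters. A short stretch is printed for Gapdh (chr4:159652428-159652527, minus strand), whose strongest cluster was 13 bp wide, and for Sptan1 (chr3:33639009-33639108, plus strand), whose strongest cluster was 152 bp wide. Both were chosen after their values were seen. Each runs from 60 bases before to 40 bases after the gene start, with the TATAAA motif in capitals.
Gapdh: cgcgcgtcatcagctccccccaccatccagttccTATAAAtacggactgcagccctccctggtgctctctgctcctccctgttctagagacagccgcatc
Sptan1: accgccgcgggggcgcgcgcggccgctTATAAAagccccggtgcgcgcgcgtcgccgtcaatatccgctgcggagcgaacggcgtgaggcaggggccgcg

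RefSeq promoters could be matched by symbol for 322 of the 416 broad clusters with a symbol, 10 of them through an older symbol. Among the 302 matched genes whose strongest cluster was broad, TATAAA stood 16 to 45 bases before the start on the gene strand in 1 gene, Sptan1 (0.331%). The share was 1.28% of 2034 matched genes with a narrower strongest cluster and 1.62% of all 33465 promoters in the table. By width of the strongest cluster, it was 8.11% at 2 to 10 bp (6 of 74 promoters, exact 95% interval 3.03 to 16.8%), 2.94% at 11 to 25 bp, and 0 of 139 at 175 to 201 bp (upper limit 2.62%). Anywhere in the window and on either strand, TATAAA was found at 4.3% of broad, 6.34% of narrower and 14.2% of all promoters. The Nqo1 window printed above, for example, holds TATAAA on the gene strand but outside the stretch of 16 to 45 bases. These distances are from the RefSeq start and not from the observed cluster.

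In base composition, the promoters of broad clusters were close to those of narrower ones and far from the genome's average promoter. Median GC content was 62.2% (quartiles 57.0 to 67.0%) for broad clusters, 60.7% for narrower ones and 51.7% for all promoters. The median ratio of observed to expected CpG was 0.828, 0.806 and 0.392 in the same order. It reached 0.6 or more at 84.1% of the promoters of broad clusters, 82.8% of those of narrower clusters and 34.4% of all promoters. The GC box GGGCGG, a binding motif of SP1-family factors, was in 68.2% of broad, 62.7% of narrower and 33.1% of all promoters.

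Other motifs, searched on both strands in the same window, were also shared. CCGGAAG, recognized by ETS-family factors, was found at 23.5% of broad and 24.4% of narrower clusters, and at 8.75% of all promoters. It was least common at clusters of 2 to 10 bp, where 2 of 74 promoters held it (2.7%, exact 95% interval 0.329 to 9.42%). The CCAAT motif was in 36.4% of broad, 39.2% of narrower and 37.5% of all promoters. The SOX-type letters ACAAAG or ACAATG were in 15.2% of broad, 18.2% of narrower and 29.1% of all promoters. The NRF1-type GCATGCGC stood at 6.29% of broad, 6.78% of narrower and 2.47% of all promoters. The YY1-type AAGATGGCG stood at 4.97, 5.26 and 1.73%, the palindrome CTCGCGAG at 3.31, 2.41 and 0.723%, the CRE TGACGTCA at 3.97, 3.88 and 1.83%, and the E-box CACGTG at 11.3, 10.2 and 6.42%, again for broad, narrower and all promoters. A match describes letters in this window and not a bound site.

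**Figure D1:**
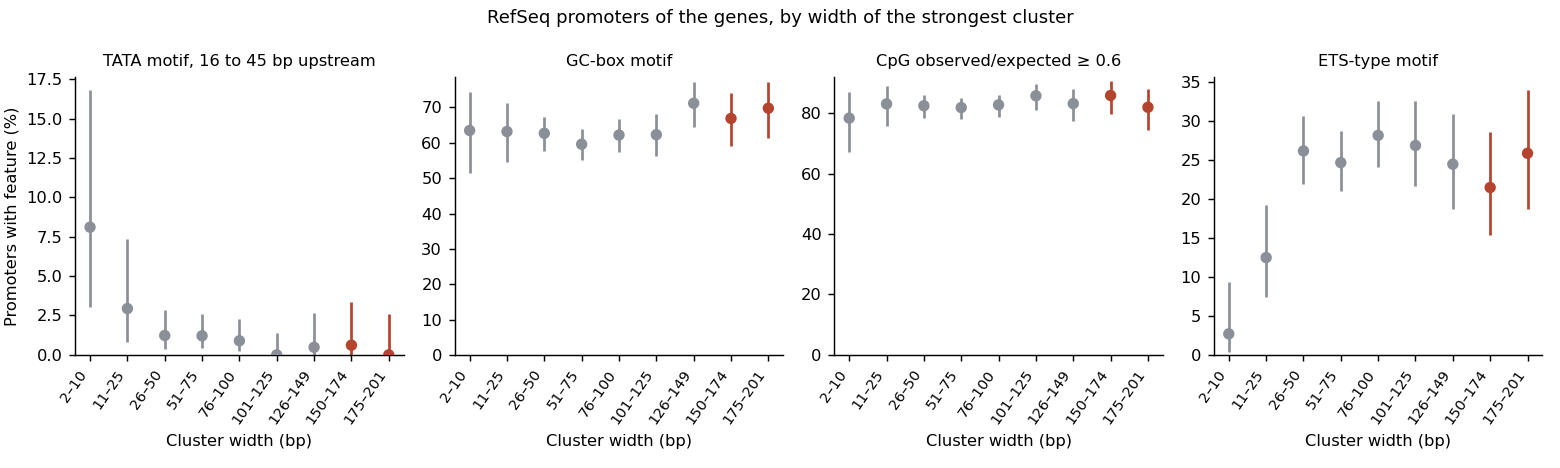
Share of RefSeq promoters (%, vertical axes from 0) that hold a TATA motif 16 to 45 bp upstream of the start, a GC-box motif, a CpG ratio of at least 0.6, or an ETS-type motif, by width in bp of the gene's strongest TSS cluster. Red points are clusters of 150 bp or more, grey points are narrower, and bars are exact 95% binomial intervals; the TATA share falls from 8.11% at 2 to 10 bp, while the GC-box share stays between 59.6 and 71.2% in every width class.

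Broad clusters were the upper end of a continuous distribution of width and not a separate class. Their median width was 170 bp (quartiles 159 to 185 bp). The widths did not tail off but stopped at 201 bp, where 9 clusters lay, and no cluster was wider. What set this stop was not tested. The median width was 57 bp over all 4993 clusters and 70 bp over the 2612 narrower strongest clusters. The 3 widest broad clusters with the highest nerve levels were those of Hddc3 (42.3 RPM), Nrdc (34.1 RPM) and Rwdd1 (31.4 RPM), each 201 bp. Just inside the limit, at exactly 150 bp, lay Mrpl17 (mitochondrial ribosome, 125 RPM), Spop (ubiquitin ligase adaptor, 42.7 RPM) and Cep164 (centriole protein, 41.9 RPM). Just outside it, 1 bp narrower, lay Ost4 (309 RPM), Dbnl (149.9 RPM) and Mrpl12 (67.0 RPM).

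Most broad clusters were the main start site of their gene. Of the 416 with a symbol, 381 (91.6%) were the strongest TSS of their gene in nerve, 25 ranked next and 10 ranked below that, and 318 (76.4%) were the gene's only candidate cluster. The share that was the strongest rose from 13.3% of clusters of 2 to 10 bp to 92.4% of clusters of 175 to 201 bp. The nearest candidate cluster on the same strand was never closer than 76 bp to a broad cluster. An H3K4me3 peak overlapped 92.1% of the 441 broad clusters, and 96.3% of the 381 strongest ones against 95.9% of narrower strongest clusters. A SOX10 peak overlapped 71.2% of the 441, and 76.9% of the 381 against 69.0%, a difference that was not tested. The H3K4me3 peaks of the 381 had a median width of 1891 bp, against 1950 bp for narrower strongest clusters. By chromosome, broad clusters made up from 5.64% of the clusters on chromosome 1 to 16.1% of those on chromosome 11.

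The median nerve level of strongest clusters rose across width classes up to the limit and levelled off within the broad set. Across the 2993 strongest clusters, Spearman's rho of width with the nerve level was 0.35, given as a description because all points come from the same libraries and width was called from reads. Among the 441 broad clusters it was -0.016. The median nerve level of strongest clusters was 3.61 RPM at 2 to 10 bp, 16 RPM at 76 to 100 bp, 18.6 RPM at 101 to 125 bp, 20.3 RPM in the class just below the limit, 22.3 RPM at 150 to 174 bp and 22.2 RPM at 175 to 201 bp. Broad clusters made up 4.28% of clusters below 5 RPM in nerve, 19.8% of those at 50 to 100 RPM and 15.5% of those at 100 RPM or more.

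**Figure D2:**
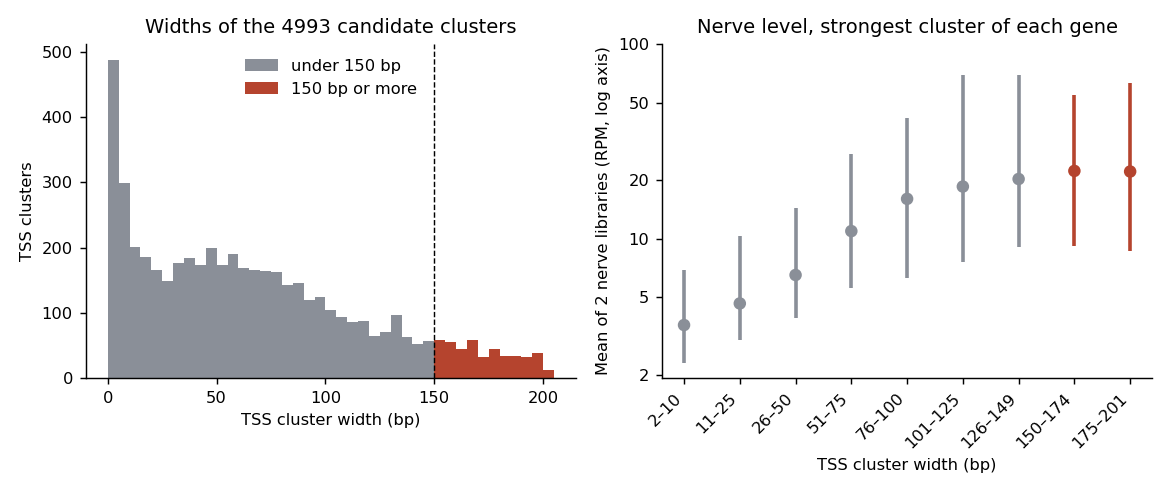
Left, number of TSS clusters by width (bp, 5-bp bins) with the 150-bp limit dashed; right, mean of the 2 nerve libraries (RPM, log axis) for the strongest cluster of each gene by width class, with points for medians and bars for quartiles. Broad clusters (red) form the upper end of the widths, which stop abruptly. Their median nerve levels (22.3 and 22.2 RPM) lie above the 3.61 RPM of the narrowest class and next to the 20.3 RPM of the class just below the limit.

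In each of the 14 libraries, the median broad cluster was above the median narrower strongest cluster. Library medians of broad clusters were 16.3 to 18.6 RPM in nerve, 31.0 to 34.6 in control cells, 33.5 to 36.0 with cAMP, 23.3 to 24.2 in parental S16 cells and 16.3 to 20.8 in ΔSOX10 clones. The corresponding medians of narrower clusters were 10.6 to 11.3, 23.2 to 23.7, 21.8 to 23.4, 18.6 to 20.4 and 14.5 to 17.2 RPM. Broad clusters held 8.59 to 8.78% of candidate reads in nerve, 13.2 to 13.4% in primary cells and 11.5 to 13% in S16 cells. Without Sparc these shares were 7.39 to 7.47%, 11.4 to 11.7% and 10.5 to 10.9%. The share depends on what else is abundant. The 7 Schwann cell markers, among which only an Egr2 cluster was broad, summed to 72480 to 73510 RPM in nerve. In primary cells their sum was 3362 to 11480 RPM, and their part in the lower nerve share was not tested.

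Broad start sites were used in most samples. Of the 441 broad clusters, 315 (71.4%) exceeded 1 RPM in all 14 libraries. Among the 381 that were the strongest of their gene this was 304 (79.8%), compared with 73.4% of the 2612 narrower strongest clusters. In the opposite direction, 12 of the 441 (2.72%) stayed at or below 1 RPM in all 12 culture libraries, 6 of them strongest clusters (1.57%, against 2.91% of narrower ones). Both nerve libraries were above all 12 culture libraries at 57 broad clusters (12.9%) and below all 12 at 130 (29.5%). For the 381 strongest, these shares were 9.45 and 33.6%, beside 7.58 and 33.4% of narrower strongest clusters. These nerve contrasts have 2 libraries from a mixed tissue on one side and were not tested.

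**Figure D3:**
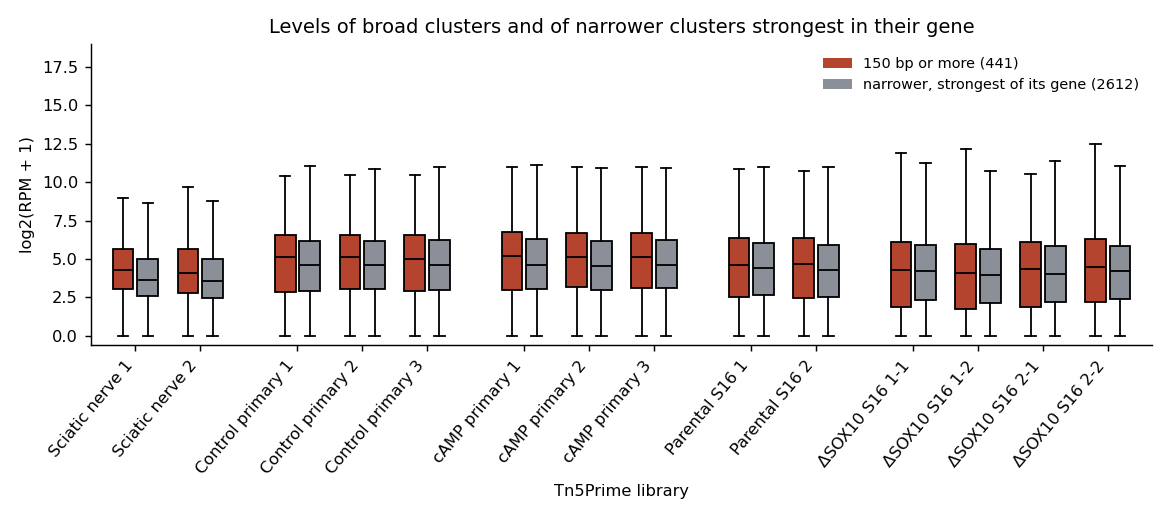
Box plots of log2(RPM + 1) in each of the 14 Tn5Prime libraries for the 441 broad clusters (red) and the 2612 narrower clusters that are the strongest of their gene (grey); boxes span the quartiles, lines are medians and whiskers reach 1.5 times the box height. The red median lies above the grey one in every library, as in nerve, with 16.3 to 18.6 RPM against 10.6 to 11.3 RPM.

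The clusters that set nerve and culture apart carried recognizable genes, chosen here after their values were seen. Itgb4, the laminin-binding integrin β4 subunit of myelinating Schwann cells, was at 47.2 and 50.6 RPM in nerve, at most 5.09 RPM in any primary culture and at 0 in all 6 S16 libraries. Magi2, a scaffold protein, was at 19.6 and 16.9 RPM in nerve and at most 0.631 RPM in the cultures. F11r, a tight junction adhesion molecule, averaged 32 RPM in nerve, and the highest culture library was at 2.91 RPM. On the other side, Ncam1, an adhesion molecule of immature and non-myelinating Schwann cells, was at 4.01 and 3.65 RPM in nerve and at 36.2 to 104 RPM in the cultures. Alcam, another adhesion molecule, was at 2.94 and 1.35 RPM in nerve and at 11.2 to 68.5 RPM in the cultures. Ccnd2, a cyclin of the G1 phase, was at 20.8 and 30.8 RPM in nerve and at 162 to 472 RPM in culture.

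The 12 broad clusters with the highest nerve levels mixed a matrix gene with respiratory chain and other widely used genes. Sparc, a secreted matricellular glycoprotein abundant in Schwann cells (chr10:40595229-40595388 in rn5, minus strand, 160 bp), was at 4174 and 3962 RPM in nerve. It was at 7219, 6818 and 7143 RPM in control cells, 6658, 6490 and 7008 RPM with cAMP, and 7340 and 6549 RPM in parental S16 cells. The ΔSOX10 clones ranged from 3878 to 8863 RPM, on both sides of the parental pair, and Sparc was called in neither comparison. Crip1, a LIM-domain protein (chr6:146959527-146959677), was at 929 and 1257 RPM in nerve and 661 to 693 RPM in control cells. It stood at 1986, 2042 and 2073 RPM with cAMP (limma log2 fold change 1.6 ± 0.06 SE, adjusted p = 4.4e-15). In S16 cells, the same cluster had a single read over all 6 libraries, in parental library 2 (0.0259 RPM).

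Tecr, an enzyme of very-long-chain fatty acid synthesis, averaged 814 RPM in nerve and 623 RPM in control cells. Gstp1, a glutathione transferase, averaged 507 RPM in nerve, and it fell with cAMP from 1339, 1434 and 1398 RPM to 821, 866 and 829 RPM. The respiratory chain was represented by Uqcr11 of complex III (478 RPM in nerve), Cox8a of complex IV (467 RPM) and Ndufa13 of complex I (378 RPM). Gabarap, an autophagosome protein, averaged 421 RPM, Eif5a, a translation factor, 331 RPM and Cstb, a cathepsin inhibitor, 326 RPM. Hspb2, a small heat shock protein, averaged 357 RPM in nerve and 45.2 RPM in control cells. Secisbp2l, an RNA-binding protein of the selenoprotein pathway family, averaged 348 RPM in nerve with libraries at 465 and 231 RPM.

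Together, 19 gene lists covered 137 of the 416 broad clusters with a symbol (32.9%) and 698 of the 2612 narrower ones (26.7%). Genes of the lysosome and autophagy list were 12 of the 416 (2.88%) and 14 of the 2612 (0.536%). Respiratory chain and ATP synthase genes were 2.64% and 1.46%, myelin and Schwann cell genes 2.88% and 0.995%, and matrix and adhesion genes 2.88% and 1.11%. Cytosolic ribosomal proteins went the other way, with 3 broad clusters (0.721%) against 45 narrower ones (1.72%). The median nerve level of the 45 narrower ribosomal clusters was 294 RPM. Ribosomal protein genes are known for sharp starts within a pyrimidine tract. Here, however, the 45 clusters had a median width of 73 bp, beside 70 bp over all 2612 narrower strongest clusters. Mediator and polymerase genes (0.721% against 1.61%) and chromatin genes (0.481% against 1.26%) were also less frequent in the broad set. These differences between sets were not tested.

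The first comparison asked how broad clusters respond when cAMP drives primary Schwann cells towards differentiation. Of the 441 broad clusters, 418 passed the filter of more than 1 RPM in at least 2 of the 6 libraries. By limma on log2(RPM + 1) with Benjamini-Hochberg adjustment over all 4119 tested clusters, 64 broad clusters rose (15.3%) and 61 fell (14.6%). Over all tested clusters, 12.9% rose and 11% fell, and among 2462 narrower strongest clusters the figures were 13.3 and 13.6%. The median log2 fold change of broad clusters was 0.0054, and their median absolute change was 0.43, against 0.38 for narrower strongest clusters. Among the 370 tested broad clusters that were the strongest of their gene, 14.9% rose and 15.9% fell. The share called thus lay close to the background in each direction.

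Calls were more frequent at higher levels in both width classes. Among strongest clusters at 20 to 50 RPM in nerve, 32% of 97 broad and 31.1% of 425 narrower clusters were called in either direction. At 100 RPM or more these were 50% of 56 and 61.0% of 269, and below 5 RPM they were 18.4% of 49 and 13.7% of 584. The median SD between replicates within groups was 0.22 on the log2 scale for both classes at 20 to 50 RPM.

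The largest rises with cAMP were at myelin and Schwann cell genes. Bcas1, a protein of myelinating glia (chr3:174102982-174103167, minus strand, 186 bp, its gene's only candidate cluster), was at 0, 0.107 and 0.0583 RPM in control cells. With cAMP it was at 134, 122 and 146 RPM, beside 164 and 142 RPM in nerve. Its log2 fold change was 6.99 ± 0.36 (SE, limma adjusted p = 9.8e-13). Ctsc, a lysosomal cathepsin that activates serine proteases, rose from 11.3, 10.3 and 5.52 RPM to 254, 216 and 200 RPM (4.53 ± 0.23, limma adjusted p = 9.3e-13). In nerve the Ctsc cluster was at 29.6 and 41.5 RPM, below all 3 cAMP libraries.

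Aatk, a kinase of the nervous system with a broad cluster of 196 bp (chr10:108799089-108799284, minus strand), was at 7.39, 1.02 and 0.447 RPM in control cells. It was at 126, 85.9 and 110 RPM with cAMP. Tgfbr3, the TGF-β coreceptor betaglycan, went from 0.875, 1.24 and 0.0194 RPM to 25.9, 48.8 and 38.7 RPM (log2 fold change 4.53 ± 0.46, limma adjusted p = 1.1e-07). Cab39l, a scaffold of the LKB1 kinase complex, went from at most 2.80 RPM to 40.7, 27.1 and 35.2 RPM. Chn2, a Rac GTPase-activating protein, went from at most 1.89 RPM to 26.4, 20.2 and 25.8 RPM. In each of these genes the 3 cAMP libraries lay above the 3 control libraries, which the rule for naming them required.

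Regulators were among the rest. Kdm6b, the H3K27 demethylase that removes repressive methylation, rose from 2.49, 0.0153 and 1.42 RPM to 37.5, 46.3 and 22 RPM, and it was at 0 in all 6 S16 libraries. Egr2, the zinc finger factor of myelination, had a single control read and stood at 7.86, 7.31 and 7.5 RPM with cAMP. Usp6nl, a Rab5 GTPase-activating protein, rose from at most 0.0153 RPM to 13.3, 18.9 and 18.3 RPM. Rnf125, a ubiquitin ligase, rose from at most 0.0153 RPM to 6.38, 14.4 and 11.6 RPM. Plpp3, a lipid phosphatase, rose from 0.333, 0.841 and 4.22 RPM to 21.8, 15.0 and 25.2 RPM. Secisbp2l, with 116, 182 and 110 RPM in control cells, reached 654, 659 and 633 RPM. The smallest of these changes was that of Secisbp2l, at 2.28 ± 0.13 on the log2 scale.

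By list, 6 of the 12 tested myelin and Schwann cell clusters rose with cAMP (Bcas1, Aatk, Ctsc, Tgfbr3, Egr2 and Mag) and 1 fell, Emp3, a small membrane protein of the PMP22 family (-0.41). The median log2 fold change over these 12 was 1.95, beside 0.0054 over all tested broad clusters and 0.021 over all tested clusters. At narrower strongest clusters of the same list, 17 of 25 rose and 3 fell. Of 4 tested clusters for cholesterol and lipid synthesis, 3 rose and none fell. These were Pmvk and Idi1 of the isoprenoid pathway (1.04 and 1.79) and Gltp, a glycolipid transfer protein (1.02). Tmem97, a sterol-regulated membrane protein, did not pass the test (0.11). At narrower strongest clusters of this list, 13 of 16 rose. In the respiratory chain list, 4 of 11 rose by small amounts (Uqcr11 0.29, Cox8a 0.18, Ndufb9 0.26 and Cox19 0.43) and Ndufa5 fell (-0.42). The matrix and adhesion list had 4 rises in 11 (Tgfbr3, Cd48, Col16a1 and Alcam) and 1 fall, the integrin subunit Itgb1 (-0.42).

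The largest falls with cAMP were smaller than the largest rises. Mgst2, a microsomal glutathione transferase of leukotriene synthesis (chr2:160180714-160180879, 166 bp), was at 111, 97.0 and 122 RPM in control cells and at 5.38, 8.77 and 11.9 RPM with cAMP. Its log2 fold change was -3.57 ± 0.26 (SE, limma adjusted p = 5.7e-10). Celf2, a splicing regulator, fell from 21.4, 19.8 and 29.6 RPM to 1.26, 2.19 and 6.75 RPM. Thap2, a zinc finger protein, fell from 22.5, 14.6 and 13.2 RPM to 2.28, 0.749 and 3.71 RPM. Cdkn2aipnl fell from 68.3, 77.6 and 61.7 RPM to 12.2, 19.9 and 22.1 RPM. None of these pairs of groups overlapped, which the rule for naming these clusters required.

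Hspb2 fell from 47.4, 49.4 and 38.7 RPM to 17.2, 7.58 and 16.2 RPM. Gabbr1, a GABA-B receptor subunit, fell from 6.62, 12.7 and 13.7 RPM to 4.95, 2.51 and 1.75 RPM. Aph1b, a γ-secretase subunit, averaged 408 RPM in control cells and 156 RPM with cAMP, and Tmem206, a chloride channel, 119 and 44.6 RPM. Rala, a small GTPase, averaged 118 and 46.6 RPM, and Cnppd1 19.6 and 7.27 RPM. In the unfolded protein response list 3 of 4 fell: Xbp1, its central transcription factor (-0.79), Pdia3, a disulfide isomerase (-0.60), and Hsp90aa1, a cytosolic HSP90 (-0.43). Derl1 did not pass the test (-0.22). At narrower strongest clusters of this list, 13 of 15 fell.

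Among other lists, vesicle traffic had 2 falls in 9 tested clusters (Vamp8 -0.92 and Vps4b -0.68) and no rise. Lysosome and autophagy had 3 falls in 12 (the proton pump subunit Atp6v1f -0.73, the cathepsin Ctsh -0.36 and Tmem9b -0.37) and 2 rises (Ctsc 4.53 and the pump subunit Atp6v1d 0.35). The Tmem9b call (limma adjusted p = 0.0474) was lost with edgeR, DESeq2, no filter, a pseudocount of 0.1 RPM and 5 of the 6 fits that left out 1 library (all but cAMP library 1). Translation had 2 rises in 7 (Eif1b 0.97 and Dars 0.78) and 1 fall (Eif2s2 -0.33). Splicing had 1 rise and 1 fall in 12 (Lsm2 0.58 and Sf3b6 -0.42). The ubiquitin enzyme list, matched by symbol, had 2 rises (Usp6nl and Rnf125) and 1 fall (Anapc5 -0.52) in 12. Of these, Usp6nl is a Rab5 GTPase-activating protein that its symbol alone placed on the list. Chaperones had 2 falls in 6, both named above. Solute carriers had 2 rises in 6 (Slc20a2 1.53 and Slc44a1 1.87), the proteasome 1 fall in 3 (Psmd8 -0.42) and Mediator and polymerase genes 1 fall in 3 (Med28 -0.54). The DNA-binding list had 1 rise (Egr2) and 2 falls (Klf6 -1.08 and Xbp1) in 12, and chromatin genes 1 rise in 2 (Kdm6b). No call was made in the mitochondrial ribosome (5 tested), other mitochondrial genes (6) or the cytosolic ribosome (3). None of the 3 broad cytosolic ribosome clusters was the strongest of its gene, and their median log2 fold change was 0.54. At narrower strongest clusters of that list, 32 of 45 rose and none fell, with a median of 0.32.

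**Figure D4:**
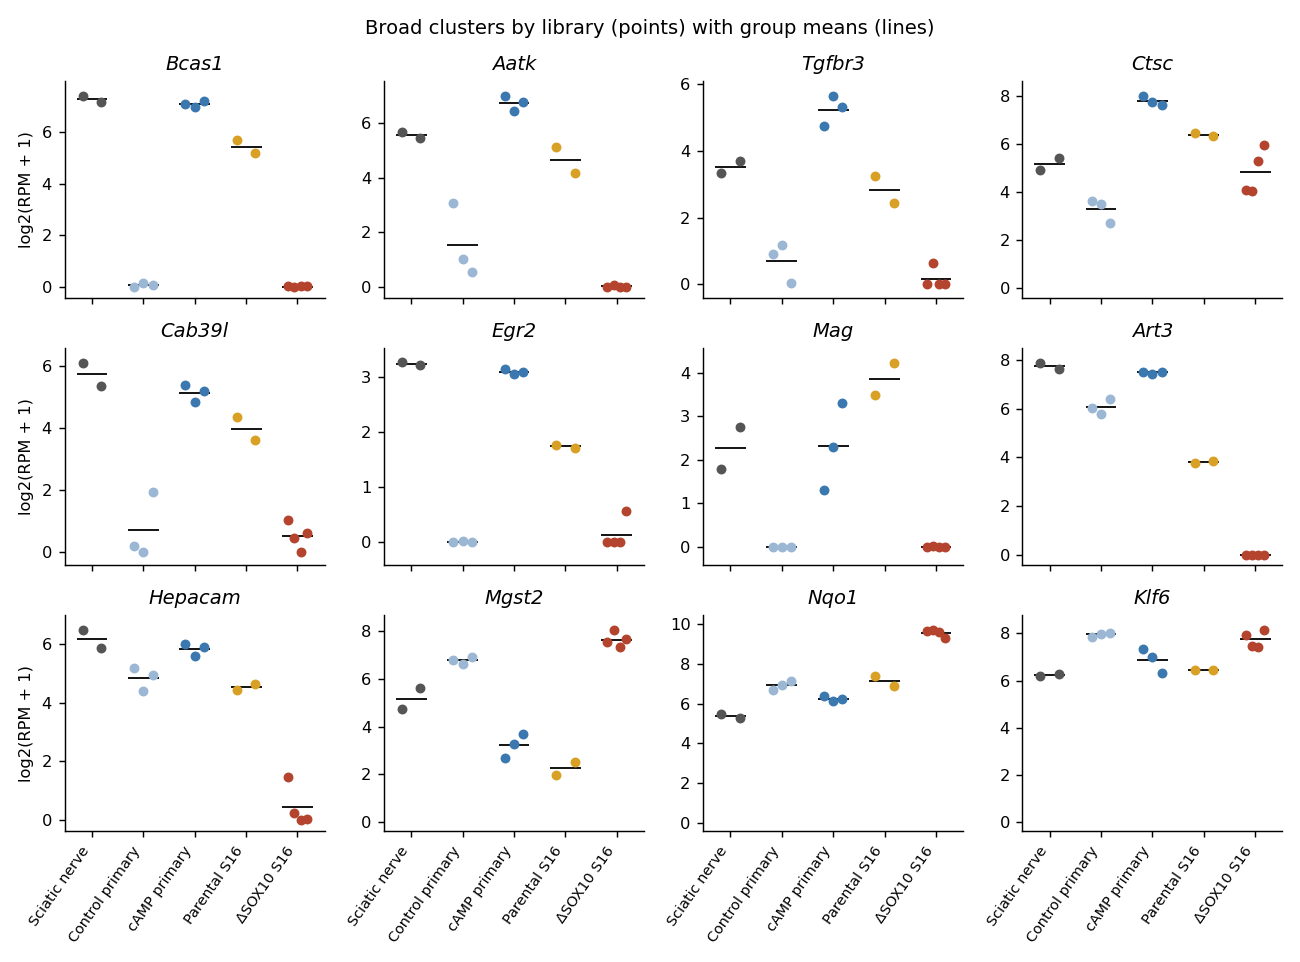
log2(RPM + 1) of 12 broad clusters in each library (points) with the mean of each group (lines) for sciatic nerve, control and cAMP-treated primary Schwann cells, parental S16 cells and ΔSOX10 S16 clones; vertical axes differ between panels. Bcas1, Aatk, Tgfbr3, Cab39l, Egr2 and Mag are lowest in control cells and ΔSOX10 clones and higher in the other groups, whereas Mgst2 and Nqo1 are highest in ΔSOX10 clones.

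The second comparison asked which broad clusters change when SOX10 is lost from S16 cells. Of the 441, 397 were tested. By limma with adjustment over 3875 clusters, 31 broad clusters fell in ΔSOX10 clones (7.81%) and 11 rose (2.77%). Over all tested clusters 6.55% fell and 1.65% rose, and among 2406 narrower strongest clusters 5.32% fell and 1.83% rose. Of the 357 tested broad clusters that were the strongest of their gene, 6.72% fell and 3.08% rose. The median log2 fold change was -0.20 for broad clusters and -0.18 for all, and with TMM scaling these medians moved to -0.065 and -0.05. With either parental library left out, 9 broad clusters fell and 4 rose. Those fits still required more than 1 RPM in at least 2 libraries. Clusters near 0 in every clone, such as Bcas1 and Art3, were therefore not tested in them. The lower number of falls is thus in part set by the filter.

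Genes of myelinating glia were among the falls. Bcas1 was at 50.4 and 35 RPM in parental cells and at 0.0255, 0, 0.0273 and 0.0285 RPM in clones 1-1, 1-2, 2-1 and 2-2, which is at most 1 read per library (log2 fold change -5.40 ± 0.38 SE, limma adjusted p = 4.7e-05). Aatk was at 33.7 and 16.9 RPM in parental cells and had 2 reads over the 4 clones, all in clone 1-2 (0.0508 RPM). Mag, the myelin-associated glycoprotein (chr1:90514460-90514627, minus strand, 168 bp), was at 10.2 and 17.7 RPM in parental cells and at 0, 0.0254, 0 and 0 RPM in the clones. Tgfbr3 was at 8.41 and 4.38 RPM and then at 0, 0.559, 0 and 0 RPM. Egr2 was at 2.42 and 2.28 RPM and then at 0, 0, 0 and 0.484 RPM (-1.60 ± 0.37, limma adjusted p = 0.032), a call lost under 6 of 11 other settings.

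Art3, an ADP-ribosyltransferase-like surface protein (chr14:17103623-17103812, minus strand, 190 bp), was at 12.5 and 13.6 RPM in parental cells and at 0 in all 4 clones. Taking 3 reads per library as the floor, this was at least 163-fold lower. Chn2 was at 6.99 and 4.28 RPM in parental cells and at 0 in all 4 clones, at least 70.3-fold lower on the same floor. Col16a1, a fibril-associated collagen, was at 12.5 and 16.8 RPM in parental cells and had 1 read over the 4 clones. Gm10863, annotated through the mouse gene, was at 49.9 and 51.4 RPM and then at 0.051, 0.0254, 0 and 0 RPM (-5.66 ± 0.37, limma adjusted p = 2.9e-05). Hepacam, a glial adhesion molecule, was at 20.9 and 24.3 RPM and then at 1.78, 0.178, 0 and 0.0285 RPM. Cab39l was at 19.4 and 11 RPM and then at 1.04, 0.381, 0 and 0.541 RPM. In each of these genes every clone lay below both parental libraries. The groups were likewise apart at every broad cluster called in this comparison, so this adds nothing to the calls. In S16 cells, Bcas1, Aatk, Mag, Tgfbr3, Egr2, Art3, Chn2, Col16a1 and Gm10863 exceeded 1 RPM only in parental libraries. They therefore passed the filter only through the group where they are high.

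Prrg4, a γ-carboxyglutamate transmembrane protein, kept a measurable level: 487 and 391 RPM in parental cells and 37.2, 29.1, 53.2 and 32.1 RPM in the clones (-3.53 ± 0.26, limma adjusted p = 5.5e-05). Entpd2, an ectonucleotidase, was at 36.8 and 38.4 RPM and then at 0.408, 0, 0 and 6.10 RPM, with clone 2-2 well above the other 3. Ctsc and Gltp did not pass the test. Ctsc was at 88.0 and 79.5 RPM in parental cells and 15.4 to 61.7 RPM in the clones, and Gltp at 41.2 and 36.6 RPM with clones at 20, 14.1, 0.273 and 15.8 RPM. Every clone was below both parental libraries at both of these clusters.

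By list, 5 of the 9 tested myelin and Schwann cell clusters fell and none rose, with a median log2 fold change of -1.60 beside -0.20 over all tested broad clusters, and 15 of 23 narrower strongest clusters of the list fell. Matrix and adhesion had 3 falls in 9: Col16a1, Tgfbr3 and Cd48, an immunoglobulin-family surface protein (-1.40). The only lipid synthesis call was Pmvk (-1.04), and the only chaperone call Hspb2 (-1.37), which averaged 94.2 RPM in parental cells and 36.0 RPM in the clones. Luc7l3, a splicing factor, fell by 0.86 on the log2 scale, a call lost under 10 of 14 other settings. Of 11 respiratory chain clusters none fell and 1 rose. No broad cluster on the lists for translation, mitochondrial ribosome, other mitochondrial genes, ubiquitin enzymes, vesicle traffic, lysosome and autophagy, the unfolded protein response or the cytosolic ribosome was called.

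The 11 rises had Mgst2 far ahead. Its cluster was at 2.92 and 4.77 RPM in parental cells and at 189, 265, 160 and 206 RPM in clones 1-1, 1-2, 2-1 and 2-2 (log2 fold change 5.41 ± 0.27 SE, limma adjusted p = 7.7e-06). Nqo1, the quinone reductase of the NRF2 response, rose from 163 and 115 RPM to 796, 809, 770 and 625 RPM (2.44 ± 0.20, limma adjusted p = 8.6e-05). Rala rose from 6.53 and 13.8 RPM to 41.0, 28.4, 29.8 and 49.5 RPM, and Klf6, a zinc finger factor, from 85.4 and 87.5 RPM to 246, 175, 173 and 281 RPM. Ccnd2 rose from 182 and 184 RPM to 472, 301, 424 and 322 RPM. For these 5 genes, every clone was above both parental libraries, which the rule for naming them required.

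The other 6 were smaller or less abundant. Slc39a13, a zinc transporter, averaged 15.2 RPM in parental cells and 49.8 RPM in the clones, and Cmc4, a mitochondrial protein, 6.54 and 21.3 RPM. Rbms2, an RNA-binding protein, averaged 27.9 and 59.8 RPM, Ndufa5 of complex I 249 and 461 RPM, and the proteasome subunit Psmd8 202 and 356 RPM. The calls of Ndufa5 (limma adjusted p = 0.0457) and Psmd8 (limma adjusted p = 0.05) lay at the threshold, and both were lost without a filter, with a pseudocount of 0.1 RPM, with edgeR and without either parental library. Psmd8 also lost its call without clone 1-1, 2-1 or 2-2, and Ndufa5 without clone 1-1, 1-2 or 2-2. The remaining call was LOC100125367, named after its values were seen. No other subunit of the respiratory chain or the proteasome with a broad cluster was called.

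Falls in ΔSOX10 clones were called at a like share of broad clusters with and without an overlapping SOX10 peak, a difference that was not tested. Of 294 tested broad clusters that overlapped a SOX10 peak, 23 fell (7.82%), and of 103 that did not, 8 fell (7.77%). Among narrower strongest clusters, 77 of 1720 with an overlap fell (4.48%) and 51 of 686 without one (7.43%). Prrg4, Gm10863, Aatk and Entpd2 were among the clusters without an overlap, with 1603 to 3371 bp to the SOX10 peak in the table. Within the broad set, falls were called at 6.19% of clusters of 150 to 174 bp and 9.94% of clusters of 175 to 201 bp, a difference that was not tested.

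The cAMP and ΔSOX10 comparisons share no library, and 394 broad clusters were tested in both. Of these, 19 rose with cAMP and fell in ΔSOX10 clones: Aatk, Ahi1, Art3, Bcas1, Cab39l, Cd48, Chn2, Col16a1, Egr2, Entpd2, Gm10863, Hepacam, Kxd1, Mag, Pmvk, Prkcz, Prrg4, Tgfbr3 and Tsnax. Another 6 fell with cAMP and rose in ΔSOX10 clones, namely Klf6, Mgst2, Ndufa5, Nqo1, Psmd8 and Rala. Anxa5, Hspb2 and Mid1ip1 fell in both, and no broad cluster rose in both. Ndufa5 and Psmd8 each lost the ΔSOX10 call under 8 of 14 other settings. The 19 and 6 are 4.82 and 1.52% of the 394, beside 133 and 29 (3.56 and 0.775%) of all 3741 clusters tested in both. Of 2382 narrower strongest clusters tested in both, 59 rose with cAMP and fell in ΔSOX10 clones (2.48%), and 19 did the opposite (0.798%). A further 91 broad clusters were called with cAMP alone and 14 in ΔSOX10 clones alone. Names in this paragraph beyond those fixed by rule were read from the calls themselves.

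**Figure D5:**
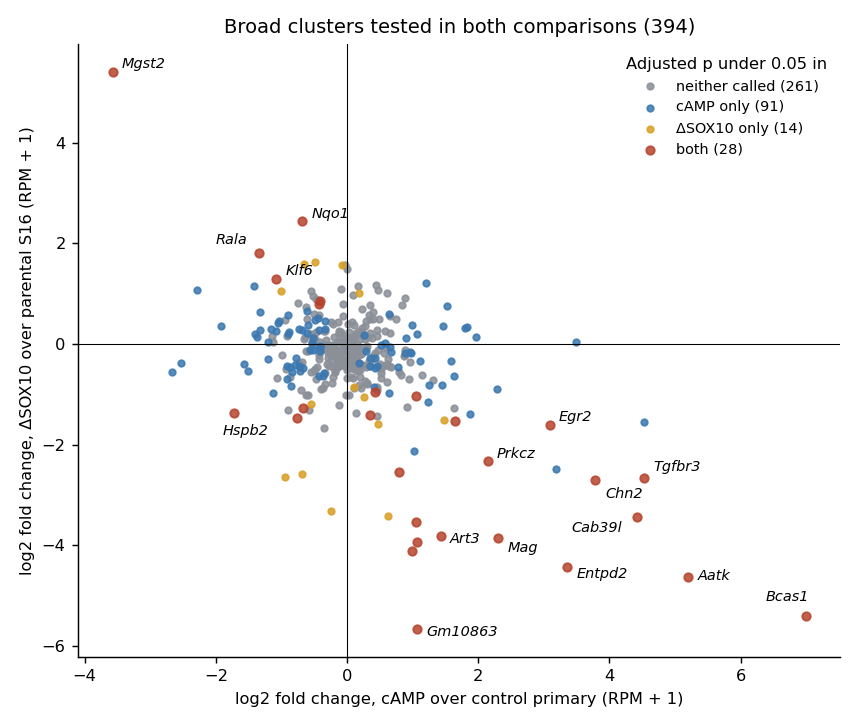
log2 fold change of the 394 broad clusters tested in both comparisons, cAMP over control primary cells on the horizontal axis and ΔSOX10 over parental S16 cells on the vertical axis, both on log2(RPM + 1). Red points (28) passed an adjusted p under 0.05 in both; 19 of them sit at the lower right and 6 at the upper left, with Bcas1 (6.99 and -5.40) and Mgst2 (-3.57 and 5.41) at the ends.

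The third comparison asked whether the share of a gene's reads that came from its broad cluster changed, which needs a gene with at least 2 candidate clusters. With cAMP, 66 broad clusters could be tested, by limma on the log2 ratio of the cluster to the sum of the gene's other clusters, and 4 were called. Over all 1541 tested clusters, 4.61% were called. The broad Aatk cluster gained share: it held 6.45% ± 8.66 (SD, n = 3) of the gene's candidate reads in control cells and 45.7% ± 2.72 (n = 3) with cAMP, near the 42.3% ± 0.166 (n = 2) of nerve. A 127-bp cluster downstream rose less, from a mean of 44.1 to 117 RPM. The broad Kdm6b cluster also gained, from 63.0% ± 32.5 to 90.8% ± 4.36 (n = 3 each), with a change of 3.14 on the log2 ratio scale (limma adjusted p = 0.0047). Its control share rests on few reads, with 1 read in control library 2.

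The broad clusters of Mag and Egr2 were called for a loss of share (log2 ratio -2.64 and -2.03, limma adjusted p = 0.04 and 0.01). Both clusters of each gene were at or next to 0 in control cells, so their control shares carry no information. With cAMP the narrower cluster of each gene stood at the higher mean level. The 92-bp Mag cluster averaged 30.6 RPM and the broad one 4.77 RPM, and the 4-bp Egr2 cluster averaged 34.0 RPM and the broad one 7.55 RPM. The fitted change of a cluster that starts at or next to 0 depends on the pseudocount: for the broad Mag cluster it was 2.31 on the log2 scale at 1 RPM, 5.27 at 0.1 RPM and 0.895 at 5 RPM. Without cAMP library 3 the rise of the broad Mag cluster lost its call (1.81, limma adjusted p = 0.0588). With cAMP the broad cluster held 13.4% ± 11 (SD, n = 3) of Mag reads and 18.2% ± 0.792 (n = 3) of Egr2 reads. In nerve the broad Egr2 cluster held 43.6% ± 28.4 (n = 2), where the 4-bp cluster averaged 16.4 RPM with an SD of 16.6.

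In ΔSOX10 clones, limma called no change of share at any of 57 tested broad clusters, while 6.99% of all 1373 tested clusters were called. At an unadjusted p under 0.05, 7 of the 57 would pass (12.3%), against 16.2% of all tested clusters. With a pseudocount of 5 RPM in place of 1, 6 broad clusters were called, and without the filter on low values 2 of 98. At Aatk and Mag both the broad and the narrower cluster were near 0 in the clones, so their shares there rest on single reads.

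Broad clusters that were not the strongest of their gene were few. Of 30 tested with cAMP, 6 rose and 1 fell, and of 28 tested in S16 cells, 5 fell and none rose. Clusters without a gene symbol numbered 25, of which 18 were tested with cAMP (3 rose, 1 fell) and 12 in S16 cells (2 fell, none rose).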

How the data were processed

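Tn5Prime reads the 5′ ends of RNA by template switching. Per the labels and methods, the authors trimmed reads with cutadapt (version 1.14), mapped them to rn5 with STAR (2.5.2a) and SAMtools (1.9), clustered start sites with Paraclu, counted reads per cluster with featureCounts (Subread 1.6.1) and tested them with edgeR (3.24.3). The deposited values are RPM per cluster in 14 columns. The authors' log2 fold change and p-value columns were not used.

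RPM was tested on log2(RPM + 1) with limma (3.58.1; R 4.3.3), without covariates, for clusters above 1 RPM in at least 2 of the 6 libraries compared, with Benjamini-Hochberg adjustment at 0.05 over all tested clusters. Whole reads were recovered from RPM steps in 92.2 to 100% of values and used with edgeR (4.0.16) and DESeq2 (1.42.0) as alternatives. Primary Schwann cell libraries were sequenced on another instrument type than the others, so levels were not tested between these models. Intervals and floors cover counting error only. The tests were also run on simulated reads with the same dispersion at every cluster and no differences between clones. That run does not cover the spread between the ΔSOX10 clones. S16 parental libraries were separate RNA samples, and the parental pair measures only the spread between such samples. The p-values of the S16 comparison pool that spread with the spread between the 4 clones, moderated by limma across clusters.

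Members, lists and tests were chosen with earlier results of these data known. Named members were the 12 highest in nerve, up to 10 per comparison and direction with the largest change among called clusters whose groups did not overlap and whose higher mean reached 10 RPM, up to 4 per list by nerve level with any called, up to 6 called for share, and the 3 widest and 3 at each side of the limit. Promoters came from RefSeq (GRCr8).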

Additional observations from a re-analysis of the deposited data

Results flagged for a closer look

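Among the 4 ΔSOX10 clones, 9 of 101 broad clusters named by rule and above 1 RPM in some clone had 1 clone far from the other 3 by Dixon's gap-to-range ratio at the 95% level. Chance flags about 1 group in 20, and 34 of 389 broad clusters (8.74%) passed the same limit. Clone 2-2 was above the others at 4 clusters: Tmem9b with 133 RPM (others 96.7 to 98.8), Secisbp2l with 40.6 RPM (9.02 to 10.2), Plpp3 with 26.2 RPM (0.686 to 1.42) and Derl1 with 121 RPM (62.7 to 67.8). Clone 2-1 was below the others at Gltp with 0.273 RPM (14.1 to 20) and at Idi1 with 0.137 RPM (1.89 to 2.24), 2 clusters of lipid genes. Clone 1-2 was below the others at Cox19 with 39.8 RPM (63.4 to 68.2) and at Ndufb9 with 665 RPM (741 to 753). Clone 1-1 was above the others at Hepacam with 1.78 RPM (0 to 0.178), a cluster at 20.9 and 24.3 RPM in parental cells. The cause was not tested.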

How the results depend on the processing

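Moving the width limit changed the counts because it changes the set: at 120 bp or more, 124 clusters rose and 120 fell with cAMP, 63 fell and 20 rose in ΔSOX10 clones, and 7 and 2 changed their share of the gene with cAMP and in ΔSOX10 clones. At 180 bp or more these were 23, 26, 14 and 4, with 1 share change with cAMP. The share counts moved with the treatment of low values: with cAMP, 9 without a filter, 1 with a mean of at least 5 RPM and 14 with a pseudocount of 5, and in ΔSOX10 clones 2 without a filter and 6 with a pseudocount of 5. Leaving out 1 library at a time gave 48 to 61 rises and 42 to 53 falls with cAMP, 9 to 38 falls and 4 to 9 rises in ΔSOX10 clones, and 2 to 3 and 0 to 1 share changes. The lowest ΔSOX10 counts came without either parental library, where clusters near 0 in every clone did not pass the filter and were not tested. With edgeR and DESeq2 on recovered reads, 49 and 59 broad clusters rose and 47 and 52 fell with cAMP, and 25 and 32 fell and 8 and 14 rose in ΔSOX10 clones. Same-numbered control and cAMP libraries did not deviate together (correlations 0.0294, 0.00751 and 0.0379). With the replicate number as a block, 67 rose, 62 fell and 2 changed share with cAMP. No paired analysis was possible for S16 cells because parental libraries and clones share no numbers. Of 94 called results for named clusters, 37 lost the call under at least 1 setting, and none reversed. A setting in which a cluster was not tested did not count as a lost call. Besides those given above, Cox8a lost its cAMP call under 9 of 15 settings, Alcam under 8, and Ctsh and Cd48 under 7 each.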
